A study of Homo sapiens with 24 samples.

Results

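The histone genes of the HIST clusters were the rows of the normalised count table whose gene names begin with HIST1H, HIST2H, HIST3H or HIST4H, without those named as pseudogenes. The table held 57820 gene rows, and 38 of them matched after 12 rows with pseudogene names were set aside. Of these 38 histone genes, 20 reached a normalised count of at least 10 in at least 3 of the 24 libraries and are the members described here. The members were thus chosen by their normalised counts, with no test, and those just inside the limit were HIST1H4C and HIST1H3D, each with 3 libraries at 10 or more, while HIST2H2AC, with 1 such library, was just outside. Of the 18 genes below the limit, 6 were listed at 0 in all libraries. The annotation held another 35 protein-coding genes with such names, which are not analysed here.

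The study treated RBE and SNU1079, established human intrahepatic cholangiocarcinoma (bile duct cancer) lines, with YC-1 or with its solvent DMSO. YC-1, a small molecule, is best known for stimulating soluble guanylate cyclase and for blocking HIF-1. Per the labels, both lines carry mutant IDH1 and express the sulfotransferase SULT1A1 at a high level, in treated and vehicle cells alike, and no dose of YC-1 is given. There were 8 groups of 3 libraries: RBE with YC-1 for 6 h, RBE with DMSO for 6 h, RBE with YC-1 for 16 h, RBE with DMSO for 16 h, and the same 4 groups of SNU1079. The times are those in the sample titles, and a separate time label contradicts them, since it puts all DMSO samples at 16 h and all YC-1 samples at 6 h. The design text calls the replicates biological, and each line is 1 cell line. The p-values therefore measure the spread between cultures, with 1 estimate per gene shared by all 8 groups of both lines.

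Histones package DNA. An octamer of the core histones H2A, H2B, H3 and H4 forms the nucleosome, and the linker histone H1 binds where DNA enters and leaves it. Most of the genes in the HIST clusters are replication-dependent: they are transcribed in S phase, when new DNA needs new nucleosomes, and their mRNAs end in a conserved stem-loop, bound by SLBP, in place of a poly(A) tail. The libraries were made with a stranded mRNA kit that selects poly(A) RNA. What was counted for these genes is therefore mainly the fraction of their RNA that carries a poly(A) tail, and a change in that fraction cannot be told apart from a change in the amount of histone mRNA.

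The stem-loops are shown because they mark the place at which a replication-dependent histone mRNA normally ends. In the GENCODE 29 annotation (GRCh38), 14 of the 20 members had at least 1 transcript that holds the 16-base histone stem-loop, and only 0.0878% of 83129 protein-coding transcripts held it. In 11 of these 14 the annotated transcript ran on for more than 100 bases beyond the stem-loop. A poly(A) signal (AATAAA or ATTAAA) stood in the last 50 bases of a transcript of 13 members, and 14 members had such a signal or such a long tail. Of the 18 genes below the limit, 3 had either. Some genes with no stem-loop here, such as HIST1H2BK and HIST1H1C, are annotated by 1 short transcript only. In the sequences below the stem-loop is in capitals, with 5 bases of transcript on each side. For HIST1H2BN the stem-loop shown is from a transcript of 1723 bases. A shorter HIST1H2BN transcript, of 432 bases, ends 5 bases after a stem-loop with other flanks, which is not shown. HIST2H3C, HIST2H3A and HIST2H2AA3 shared all 26 bases.
HIST2H3C: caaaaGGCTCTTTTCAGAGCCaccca
HIST2H3A: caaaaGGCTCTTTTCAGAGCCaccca
HIST2H2AA3: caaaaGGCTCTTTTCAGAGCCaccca
HIST1H2AC: ccaaaGGCTCTTTTCAGAGCCcccct
HIST1H2BN: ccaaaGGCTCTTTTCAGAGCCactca
HIST1H2AG: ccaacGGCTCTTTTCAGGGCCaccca
HIST1H2BC: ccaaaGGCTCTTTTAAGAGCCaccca
HIST1H4H: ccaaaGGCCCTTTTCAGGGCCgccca
The most that any annotated transcript ran on after the stem-loop was 1154 bases in HIST2H3C, 35 in HIST2H2AA3, 1128 in HIST1H2AC, 377 in HIST1H2BN, 1761 in HIST1H2AG, 116 in HIST1H2BC and 1655 in HIST1H4H.

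The deposited values summed to between 19005743 and 27008873 normalised counts per library, and the commonest low value, which is about what 1 read is worth, lay between 0.52 and 1.83. In RBE this value was 1.83, 1.63 and 0.67 with YC-1 for 6 h, against 0.8, 0.52 and 0.55 with DMSO. For 16 h in RBE it was 0.86, 1.29 and 1.51, against 0.87, 0.73 and 0.56. In SNU1079 it was 1.26, 0.87 and 0.89 with YC-1 for 6 h, against 1.08, 0.91 and 1.02 with DMSO. For 16 h in SNU1079 it was 1.72, 1.23 and 1.8, against 1.11, 0.98 and 0.95. A higher value means fewer reads behind the same count. A member near 10 therefore rests on few reads. In bulk cultures fewer cells with a transcript and less RNA per cell cannot be told apart. All 6 cholangiocyte markers found in the table, KRT7 and KRT19 among them, were at 10 or more in all 24 libraries, and of 6 hepatocyte, 5 leukocyte and 5 stromal or endothelial markers 1, 0 and 1 were. The leukocyte markers PTPRC and CD3E and the hepatocyte marker APOA1 stayed under 10 in all libraries, but the sums of some lists moved with treatment. The leukocyte markers summed to between 89.2 and 103 in RBE with YC-1 for 16 h, against 49.1 to 52.4 with DMSO, and to between 42.1 and 62.6 in SNU1079 with YC-1 for 16 h, against 0.876 to 2.58 with DMSO, and 1 of the 2 tested was called higher in each. The hepatocyte markers summed to between 1921 and 2005 in RBE with YC-1 for 16 h, against 1189 to 1282 with DMSO, and to between 1557 and 2211 in SNU1079 with YC-1 for 16 h, against 1176 to 1369 with DMSO. The part of these marker levels in the histone values was not tested. Mitochondrially encoded genes took 16.1% ± 0.827 of the counts in RBE with YC-1 for 16 h, against 7.86% ± 0.275 with DMSO, and 14.5% ± 9.87 in SNU1079 with YC-1 for 16 h, against 7.57% ± 1.36 with DMSO (SD, n = 3 each). In RBE all 3 libraries with YC-1 for 16 h lay above those with DMSO, whereas in SNU1079 the YC-1 libraries had 18.1%, 3.38% and 22.1%, 1 of them below all DMSO libraries. Scalings to equal sums with and without these genes are given below. For the deposited scaling the part of this share in the histone values was not measured. In SNU1079, 3 libraries stood apart from the others of their groups (YC-1 6 h replicate 1, YC-1 16 h replicate 2 and DMSO 16 h replicate 1), with mean absolute log2 distances from the median of their group of 0.48, 0.37 and 0.40 over all genes tested. They were picked after these distances were seen and with no fixed limit, and YC-1 16 h replicate 3, at 0.34, was close to them.

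A few genes made up most of the histone signal. HIST1H2BK (H2B) had the highest mean normalised count over the 24 libraries (608), followed by HIST1H2AC (H2A; 286) and HIST1H1C (the linker histone H1.2; 232), and these 3 genes gave between 59.7% and 81.2% of the summed count in each of the 24 libraries. The next were HIST1H2BD at 59.5, HIST2H2BE at 55.3, HIST2H2AA3 at 50.2, HIST1H2BN at 41.5, HIST1H2AG at 34.6, HIST1H4H at 31.8 and HIST1H2BC at 25.3. Per kilobase of the longest annotated transcript the mean normalised count was 1596 for HIST1H2BK, 362 for HIST1H1C, 172 for HIST1H2AC, 91.5 for HIST2H2AA3, 75.4 for HIST1H2BD and under 40 for each of the other 15. Neighbours in this order are uncertain, since transcripts that reach beyond the annotated ends would lower the per-kilobase value. The 20 genes together took only 41.5 to 112 of each 1000000 normalised counts.

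The summed normalised count of the 20 genes was 977 ± 84.2 in RBE with YC-1 for 6 h and 953 ± 89.0 with DMSO, and 1411 ± 66.7 with YC-1 for 16 h and 1046 ± 79.9 with DMSO (SD, n = 3 each). In SNU1079 it was 1963 ± 325 with YC-1 for 6 h and 2020 ± 82.2 with DMSO, and 2140 ± 114 with YC-1 for 16 h and 1816 ± 103 with DMSO. The sums with YC-1 lay above all sums with DMSO at 16 h in each line and overlapped at 6 h. All sums here count HIST2H3A and HIST2H3C separately, though their annotated transcripts are identical. Both genes reached 10 only in libraries with YC-1, so the direction of the sums was in part fixed by the choice of members. Without HIST1H2BK the sum was 555 ± 18.8 in RBE with YC-1 for 6 h and 375 ± 13.5 with DMSO, with no overlap. In SNU1079 the same sum was 1379 ± 217 with YC-1 for 6 h and 1224 ± 52.6 with DMSO and overlapped. HIST1H2BK, which this sum leaves out, is a gene that fell at 6 h. As a share of all counts the 16 h difference was small or turned round: the 20 genes took 53.0 ± 2.73 per 1000000 in RBE with YC-1 and 49.2 ± 3.83 with DMSO, and 85.6 ± 2.97 per 1000000 in SNU1079 with YC-1 and 93.5 ± 6.36 with DMSO.

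**Figure D1:**
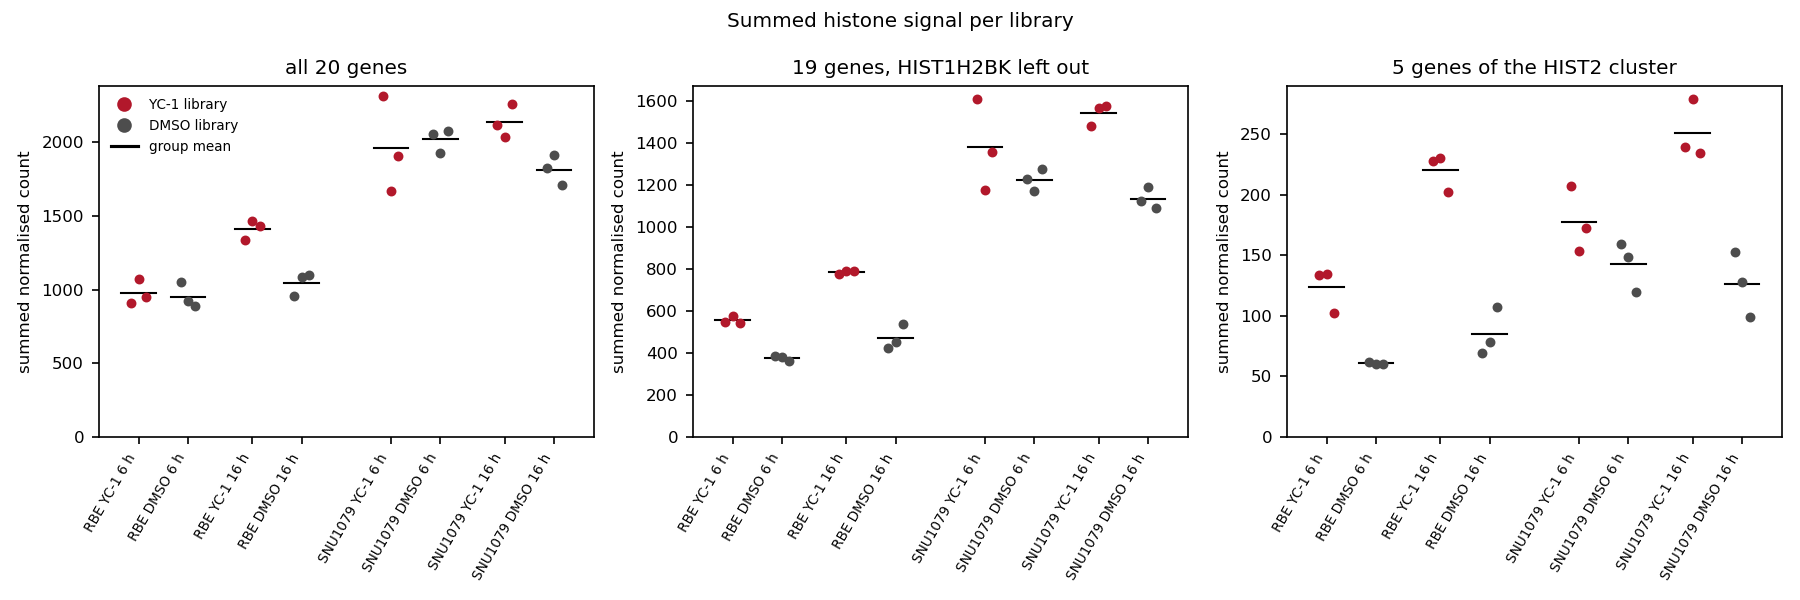
Summed normalised count per library (y axis, from 0) for all 20 histone genes, for 19 genes without HIST1H2BK and for the 5 genes of the HIST2 cluster. Points are libraries, YC-1 in red and DMSO in grey, and horizontal lines are group means. At 16 h the 3 YC-1 libraries of each line lie above their 3 DMSO libraries in all panels, whereas as a share of all counts the SNU1079 mean for the 20 genes is lower with YC-1 (85.6 against 93.5 per 1000000). Every panel counts HIST2H3A and HIST2H3C separately, though their annotated transcripts are identical. Both are members only through YC-1 libraries, so the direction was in part fixed by the choice of members.

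With YC-1 a minority of the histone genes rose and a few fell, and the pair HIST2H3A and HIST2H3C rose in both lines at both times. At 6 h in RBE, 8 of 20 members rose and 1 fell (limma, adjusted p under 0.05), where 11.6% of all 17860 genes tested rose and 12.4% fell. At 16 h in RBE, 8 rose and 2 fell, beside 27.3% and 26.6% of all genes. In SNU1079, 2 rose and 2 fell at 6 h, beside 14% and 14.2% of all genes, and 6 rose and none fell at 16 h, beside 28.7% and 25.8%. In RBE the share of members that rose was above that of all genes, more so at 6 h, and in SNU1079 it was near or below that of all genes. HIST2H3A and HIST2H3C are 1 measurement, since their transcripts are identical. With the pair taken once, 7 of 19 rose and 1 fell at 6 h in RBE, 7 rose and 2 fell at 16 h in RBE, 1 rose and 2 fell at 6 h in SNU1079, and 5 rose and none fell at 16 h in SNU1079. No member fell in SNU1079 at 16 h, also at an unadjusted p under 0.05. The median log2 fold change of the 20 members was 0.47 for RBE at 6 h (0.00 over all genes) and 0.60 for RBE at 16 h (0.02 over all genes). For SNU1079 it was 0.18 at 6 h (0.01 over all genes) and 0.29 at 16 h (0.06 over all genes). Counting libraries, all 3 YC-1 values lay above all 3 DMSO values in 10 members and below in 1 for RBE at 6 h (23.5% and 24.6% of all genes), and in 11 and 2 for RBE at 16 h (35.6% and 33.5%). For SNU1079 the numbers were 3 above and 2 below at 6 h (20.1% and 20.2%), and 6 above and 0 below at 16 h (26.8% and 24.5%). Of the 20 genes, 10 rose in at least 1 of the 4 comparisons, 4 fell in at least 1, none did both, and 6 were never called (HIST1H2AI, HIST1H2BJ, HIST1H3D, HIST1H4C, HIST2H2BF and HIST3H2A).

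These counts describe the members and support nothing further, since 4 of them (HIST2H3A, HIST2H3C, HIST1H4C and HIST1H3D) would not have passed the level limit on the 12 DMSO libraries alone. Among the 16 that would, in RBE 6 rose with 1 falling at 6 h, and 6 rose with 2 falling at 16 h, while in SNU1079 none rose with 2 falling at 6 h, and 4 rose with none falling at 16 h. The counts also rest on 3 libraries a group: without RBE YC-1 6 h replicate 1 or replicate 2, 5 members rose at 6 h, and without RBE YC-1 16 h replicate 1, 5 rose at 16 h. At 16 h the choice of scaling moves all genes, by -0.27 in RBE and -0.25 in SNU1079 when libraries are set to equal sums, and by -0.83 and -0.35 when they are set to equal levels of 76 ribosomal protein genes (median log2 fold change of all genes). With equal sums 4 members rose in RBE at 16 h, with equal sums without mitochondrial genes 5 rose, and with ribosomal protein genes 3 rose and 5 fell. The shares of all genes called under these scalings are not given here.

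**Figure D2:**
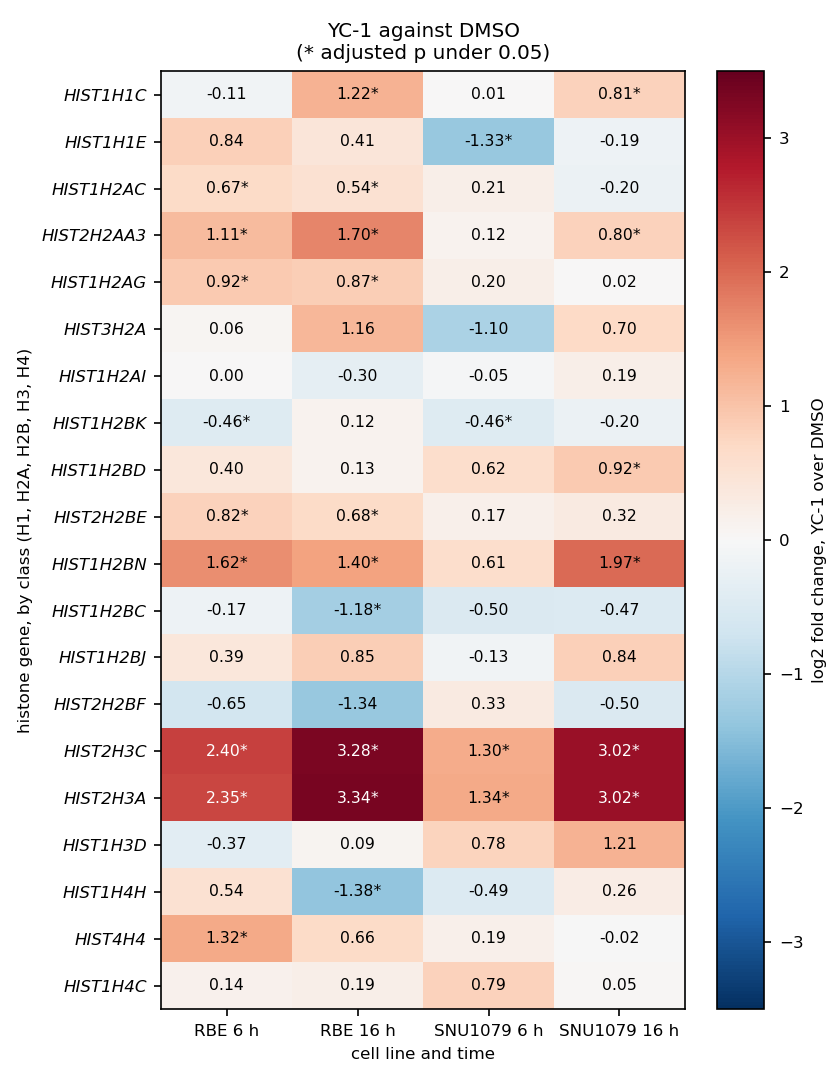
Log2 fold change of YC-1 over DMSO on the log2(normalised count + 1) scale for the 20 histone genes (rows, by histone class) in the 4 comparisons (columns), with the value in each cell, red for higher with YC-1 and blue for lower. A star marks an adjusted p under 0.05. HIST2H3C and HIST2H3A, whose annotated transcripts are identical, are starred in all 4 columns, from 1.30 to 3.34. They are members only through YC-1 libraries, so this direction was in part fixed by the choice of members. In RBE at 16 h the signs of HIST1H2AC, HIST2H2BE and HIST1H2AG turn round when libraries are scaled to ribosomal protein genes.

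The H3 genes HIST2H3A and HIST2H3C (core histone H3.2) rose in all 4 comparisons. They lie in the HIST2 cluster on chromosome 1 (GRCh38), HIST2H3C at chr1:149839538-149841193 on the minus strand and HIST2H3A at chr1:149852619-149854274 on the plus strand. Their annotated transcripts are identical over all 1656 bases, and their normalised counts agreed within 1 count in 21 of the 24 libraries, with a largest gap of 1.83. Reads of the copies cannot be told apart, so the rows are 1 measurement, given here for HIST2H3C.

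HIST2H3C had 16.5, 14.8 and 12.7 normalised counts in RBE with YC-1 for 6 h, against 1.60, 1.04 and 3.86 with DMSO. At 16 h it had 46.3, 46.4 and 42.2 with YC-1, against 3.48, 4.36 and 3.38 with DMSO. In SNU1079 it had 17.6, 12.1 and 16.9 with YC-1 for 6 h, against 5.42, 5.44 and 6.10 with DMSO, and 34.3, 52.9 and 30.3 with YC-1 for 16 h, against 5.56, 4.88 and 1.89 with DMSO. Every YC-1 library thus lay above every DMSO library of either line and time. HIST2H3C passed the level limit through its 12 YC-1 libraries alone and reached 10 in 0 of 12 DMSO libraries, so a difference in this direction was in part fixed by the choice of members, and the size of the change is given as a description with its test from the fit of all genes. The log2 fold change was 2.40 ± 0.35 in RBE at 6 h (SE; adjusted p = 2.89e-05) and 3.28 ± 0.35 at 16 h (adjusted p = 1.11e-07). In SNU1079 it was 1.30 ± 0.35 at 6 h (adjusted p = 0.00812) and 3.02 ± 0.35 at 16 h (adjusted p = 3.81e-07). These folds are taken on log2(normalised count + 1) and understate changes of genes as low as this one in DMSO, where a few reads carry the value. All 4 calls held under every scaling and with each library left out, with log2 fold changes of 2.45 in RBE and 2.60 in SNU1079 at 16 h under ribosomal protein scaling. Without the 3 SNU1079 libraries that stood apart the values in that line were 1.21 at 6 h and 3.01 at 16 h. The other H3 gene, HIST1H3D, was not called in any comparison and stayed under 4 normalised counts in all RBE libraries, while 1 library, SNU1079 YC-1 6 h replicate 1, reached 31.7.

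**Figure D3:**
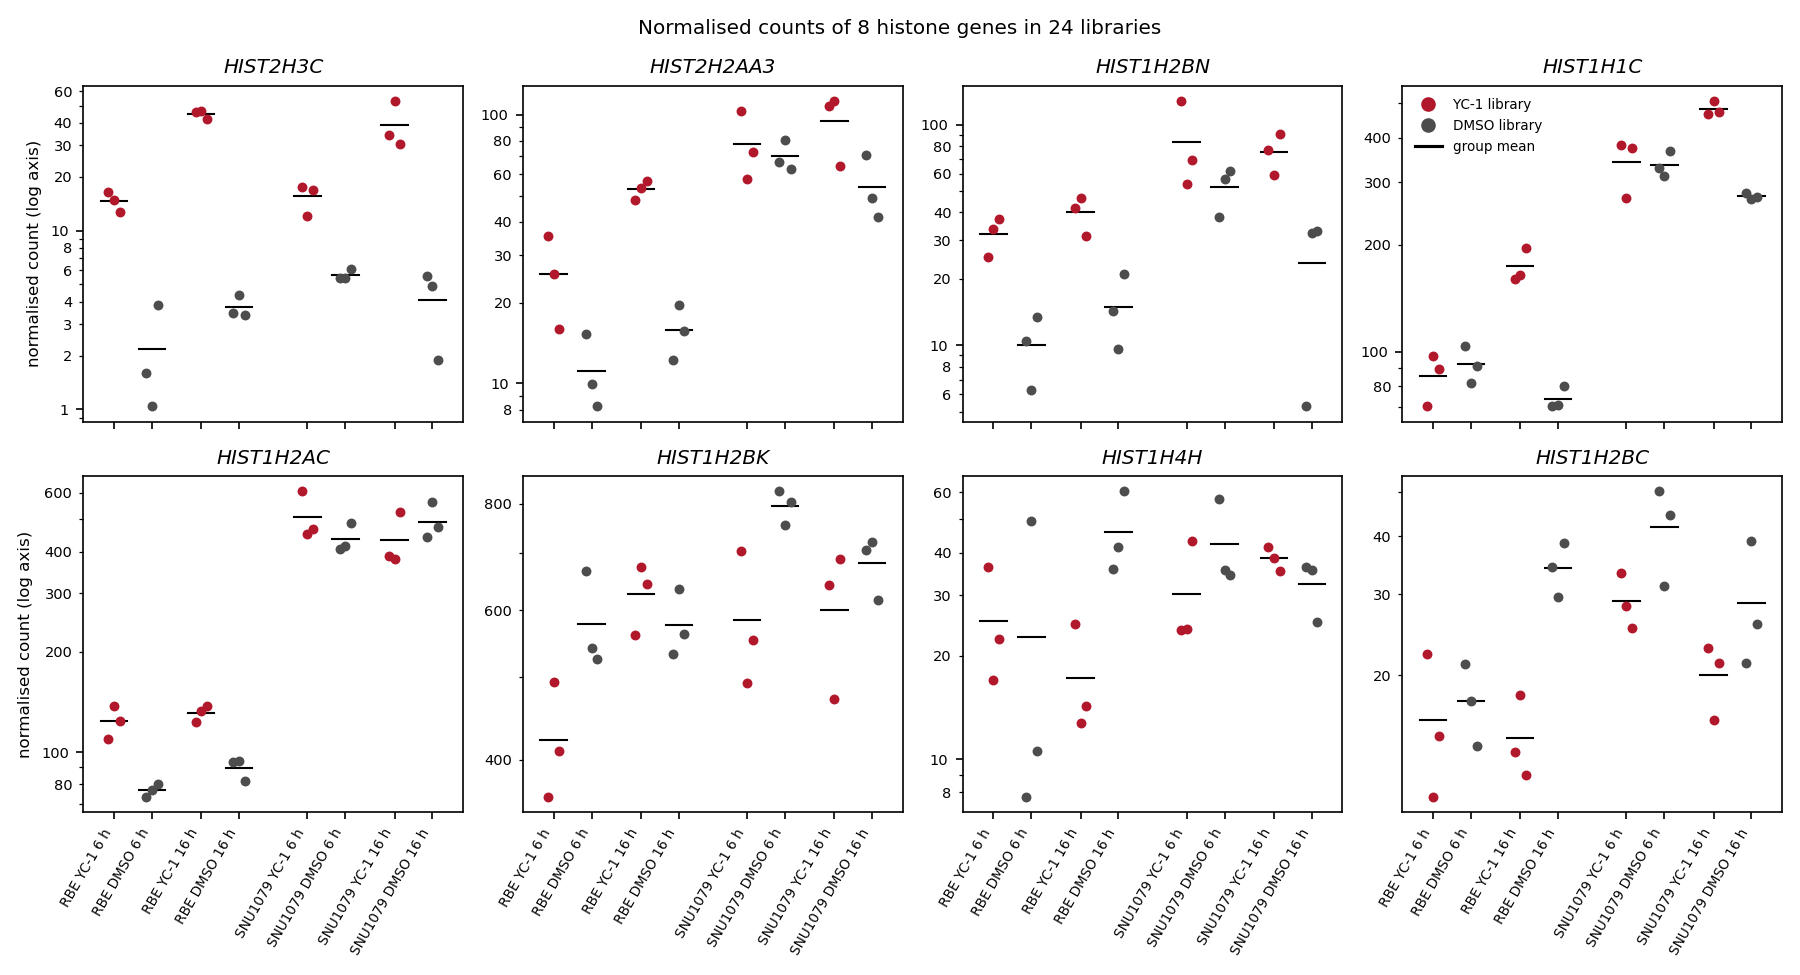
Normalised counts on log axes for 8 histone genes in the 24 libraries. Points are libraries, red for YC-1 and grey for DMSO, horizontal lines are group means, and the x axis lists the 8 groups by line and time, each YC-1 group left of its DMSO group. In HIST2H3C, which is a member only through its YC-1 libraries, all 12 YC-1 libraries lie above all 12 DMSO libraries. HIST1H2BC and HIST1H4H lie lower with YC-1 in RBE at 16 h.

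Among the H2A genes, HIST2H2AA3 rose in RBE at both times and in SNU1079 at 16 h. It lies in the HIST2 cluster next to HIST2H3C, at chr1:149842188-149842736, and the annotated transcript of HIST2H2AA4, which is not analysed here, holds all 549 bases of its transcript, so reads may have been split between the copies. HIST2H2AA3 had 35.4, 25.6 and 16.0 normalised counts in RBE with YC-1 for 6 h, against 15.2, 9.98 and 8.21 with DMSO. At 16 h it had 48.0, 53.4 and 56.7 with YC-1, against 12.2, 19.5 and 15.7 with DMSO. The RBE groups did not overlap at either time, and the log2 fold change was 1.11 ± 0.32 at 6 h (adjusted p = 0.0135) and 1.70 ± 0.32 at 16 h (adjusted p = 0.000128). In SNU1079 the values with YC-1 for 6 h (103, 57.8 and 72.7) overlapped those with DMSO (66.5, 80.3 and 63.0). At 16 h they were 108, 112 and 64.4 with YC-1 and 70.9, 49.0 and 41.5 with DMSO, which overlapped too, with a log2 fold change of 0.80 ± 0.32 (adjusted p = 0.0385). That SNU1079 call was lost under all 3 other scalings (0.34 to 0.56, adjusted p between 0.142 and 0.347), and without YC-1 16 h replicate 1 or 2 or DMSO 16 h replicate 2 or 3 (adjusted p between 0.0921 and 0.147). The RBE 6 h call was lost without YC-1 replicate 1 (adjusted p = 0.0906) or DMSO replicate 3 (adjusted p = 0.0761).

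HIST1H2AC, which had the highest mean count among the H2A genes of the HIST clusters, and HIST1H2AG rose in RBE. HIST1H2AC had 110, 137 and 124 normalised counts in RBE with YC-1 for 6 h, against 73.5, 77.0 and 80.3 with DMSO, and 123.1, 133 and 137 with YC-1 for 16 h, against 93.1, 94.0 and 82.0 with DMSO. The groups were apart at both times, with log2 fold changes of 0.67 ± 0.16 at 6 h (adjusted p = 0.00271) and 0.54 ± 0.16 at 16 h (adjusted p = 0.00577). The 16 h value of HIST1H2AC turned to -0.36 (adjusted p = 0.119) under ribosomal protein scaling, and was 0.22 (adjusted p = 0.242) with equal sums and 0.35 (adjusted p = 0.067) with equal sums without mitochondrial genes. In SNU1079 it averaged 508 ± 85.7 with YC-1 and 436 ± 43.3 with DMSO at 6 h, and 432 ± 82.7 with YC-1 and 492 ± 62.4 with DMSO at 16 h, and neither difference passed the test. HIST1H2AG averaged 55.2 ± 4.77 in RBE with YC-1 and 29.1 ± 6.74 with DMSO at 6 h (log2 fold change 0.92 ± 0.30, adjusted p = 0.0301), and 62.1 ± 8.0 with YC-1 and 33.5 ± 3.43 with DMSO at 16 h (0.87 ± 0.30, adjusted p = 0.0195). Each RBE group of HIST1H2AG was apart from its control, but the 6 h call was lost without any 1 of the 3 YC-1 libraries or without DMSO replicate 2 or 3 (adjusted p between 0.0539 and 0.137), and the 16 h call without YC-1 replicate 1 (0.0688) or DMSO replicate 1 (0.0669). Its 16 h value was 0.55 (adjusted p = 0.136) with equal sums and -0.021 (adjusted p = 0.965) under ribosomal protein scaling. The 6 h call of HIST1H2AG was also lost under ribosomal protein scaling (0.89, adjusted p = 0.0533) and with no filter (0.0655). HIST3H2A and HIST1H2AI were not called with YC-1, and HIST1H2AI was listed at 0 in 11 of the 12 RBE libraries.

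The H2B genes moved in both directions. HIST1H2BN had 25.2, 33.6 and 37.4 normalised counts in RBE with YC-1 for 6 h, against 10.5, 6.31 and 13.4 with DMSO, and 42.1, 46.5 and 31.4 with YC-1 for 16 h, against 14.3, 9.57 and 21.04 with DMSO. In SNU1079 it had 128, 54.0 and 69.5 with YC-1 for 6 h, against 38.1, 56.5 and 61.7 with DMSO, and 77.1, 58.9 and 90.6 with YC-1 for 16 h, against 5.28, 32.3 and 33.1 with DMSO. The groups were apart in all but SNU1079 at 6 h, with log2 fold changes of 1.62 ± 0.49 in RBE at 6 h (adjusted p = 0.0194), 1.40 ± 0.49 in RBE at 16 h (adjusted p = 0.0203) and 1.97 ± 0.49 in SNU1079 at 16 h (adjusted p = 0.00194). Without the 3 SNU1079 libraries that stood apart, 1 of which is the DMSO 16 h library at 5.28, the last value was 1.33 (adjusted p = 0.0058). The RBE calls of HIST1H2BN were lost without YC-1 replicate 2 or 3 or DMSO replicate 2 at 6 h (adjusted p between 0.0569 and 0.0993), and without YC-1 replicate 1 or 2 or DMSO replicate 2 at 16 h (between 0.0527 and 0.0928). At 16 h in RBE it was also lost with equal sums (1.09, adjusted p = 0.0655) and ribosomal protein scaling (0.53, adjusted p = 0.383).

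HIST2H2BE rose in RBE, with 60.3, 75.2 and 57.4 normalised counts with YC-1 for 6 h, against 33.7, 35.8 and 38.1 with DMSO, and 78.0, 77.2 and 60.4 with YC-1 for 16 h, against 45.2, 35.6 and 53.3 with DMSO. The log2 fold change was 0.82 ± 0.24 at 6 h (adjusted p = 0.0173) and 0.68 ± 0.24 at 16 h (adjusted p = 0.0229, but 0.36 with adjusted p = 0.214 for equal sums and -0.21 with adjusted p = 0.547 under ribosomal protein scaling). The HIST2H2BE calls were lost without YC-1 replicate 2 (0.0834) or DMSO replicate 1 (0.056) at 6 h, and without YC-1 replicate 1 (0.0738), YC-1 replicate 2 (0.0693) or DMSO replicate 2 (0.111) at 16 h. Under ribosomal protein scaling the 6 h call of HIST2H2BE was lost as well (0.78, adjusted p = 0.068). HIST1H2BD rose in SNU1079 at 16 h, with 104, 120 and 104 with YC-1, against 70.7, 43.0 and 61.7 with DMSO (log2 fold change 0.92 ± 0.25, adjusted p = 0.00406), a call of HIST1H2BD that was lost with equal sums (0.56, adjusted p = 0.0722) and ribosomal protein scaling (0.46, adjusted p = 0.172). In RBE HIST1H2BD gave 0.40 ± 0.25 at 6 h (adjusted p = 0.289) and 0.13 ± 0.25 at 16 h (adjusted p = 0.682).

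HIST1H2BK, which had the highest mean count among the 38 HIST-named genes, fell at 6 h in each line. It had 362, 494 and 410 normalised counts in RBE with YC-1 for 6 h, against 668, 541 and 526 with DMSO, and 705, 492 and 553 in SNU1079 with YC-1 for 6 h, against 828, 756 and 805 with DMSO. The groups were apart, with log2 fold changes of -0.46 ± 0.16 in RBE (adjusted p = 0.0389) and -0.46 ± 0.16 in SNU1079 (adjusted p = 0.0314). At 16 h the fold changes were 0.12 ± 0.16 in RBE and -0.20 ± 0.16 in SNU1079 and did not pass the test. The 6 h calls of HIST1H2BK are near the threshold: in RBE the call was lost without YC-1 replicate 1 or 3 or DMSO replicate 1 or 2 (adjusted p between 0.0586 and 0.179), and in SNU1079 without YC-1 replicate 2 or 3 or any 1 of the DMSO libraries (between 0.0514 and 0.143). The RBE call was also lost under ribosomal protein scaling (-0.50, adjusted p = 0.0591), with no filter (0.0644) and with a replicate block (0.0517). With no filter the SNU1079 call was lost too (0.0514), as in a fit of the 12 SNU1079 libraries alone (0.0845). HIST1H2BC fell in RBE at 16 h, with 13.7, 18.1 and 12.1 with YC-1, against 34.3, 29.6 and 38.8 with DMSO (log2 fold change -1.18 ± 0.30, adjusted p = 0.0022). The call for HIST1H2BC held with each library left out and under each scaling, where it was between -2.04 and -1.18. In RBE DMSO it averaged 34.2 ± 4.61 at 16 h and 17.6 ± 3.56 at 6 h, and the 16 h YC-1 level was 14.6 ± 3.10. HIST1H2BJ and HIST2H2BF were not called.

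HIST1H2BC and HIST1H2AC are head-to-head neighbours whose annotated starts on chromosome 6 (26123926 on the minus strand and 26124145 on the plus strand) lie 219 bases apart. In RBE at 16 h HIST1H2BC fell by 1.18 on the log2 scale while HIST1H2AC gave 0.54, or -0.36 under ribosomal protein scaling. HIST1H2BJ and HIST1H2AG, 292 bases apart, form the other such pair among the members, and in RBE at 16 h gave 0.85 ± 0.48 (adjusted p = 0.143) and 0.87 ± 0.30. Both genes of a pair can share reads only where transcripts overlap, and the kit marks strand, but whether the authors' counting used it is not given in the sources used here.

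The linker histone gene HIST1H1C (H1.2), at chr6:26055787-26056428, rose at 16 h and not at 6 h. It had 160, 165 and 196 normalised counts in RBE with YC-1 for 16 h, against 70.6, 71.0 and 80.1 with DMSO, and 465, 506 and 473 in SNU1079 with YC-1 for 16 h, against 279, 269 and 273 with DMSO. The groups were apart in both lines, with log2 fold changes of 1.22 ± 0.16 in RBE (adjusted p = 1.47e-06) and 0.81 ± 0.16 in SNU1079 (adjusted p = 0.00019). At 6 h HIST1H1C averaged 85.6 ± 13.9 with YC-1 and 92.3 ± 11.3 with DMSO in RBE, and 343 ± 62.4 with YC-1 and 336 ± 27.5 with DMSO in SNU1079 (log2 fold changes -0.11 ± 0.16 and 0.01 ± 0.16). Both 16 h calls of HIST1H1C held with each library left out but not under ribosomal protein scaling, which gave 0.31 (adjusted p = 0.11) in RBE and 0.34 (adjusted p = 0.0904) in SNU1079. The other linker gene above the limit, HIST1H1E (H1.4), had 5.01, 3.43 and 7.32 in SNU1079 with YC-1 for 6 h, against 21.9, 12.7 and 10.2 with DMSO (-1.33 ± 0.46, adjusted p = 0.0358). Its call was lost without YC-1 replicate 1 or 2 or DMSO replicate 1 or 2 (adjusted p between 0.0638 and 0.165), and in RBE at 6 h HIST1H1E gave 0.84 ± 0.46 (adjusted p = 0.218). The linker genes HIST1H1A, HIST1H1B, HIST1H1D and HIST1H1T were below the limit.

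Of the H4 genes, HIST1H4H fell in RBE at 16 h, with 24.8, 12.8 and 14.3 normalised counts with YC-1, against 35.9, 41.5 and 60.4 with DMSO. The groups were apart (log2 fold change -1.38 ± 0.48, adjusted p = 0.0182), but the call was lost without YC-1 replicate 2 or 3 or DMSO replicate 3 (adjusted p between 0.0574 and 0.0784) and in a fit of the 12 RBE libraries alone (0.0605). The HIST1H4H spread in RBE DMSO at 6 h was wide, with 7.78, 49.6 and 10.5. HIST4H4 rose in RBE at 6 h, with 13.9, 11 and 6.14 with YC-1, against 2.77, 4.67 and 2.83 with DMSO (1.32 ± 0.37, adjusted p = 0.011), and the call was lost without YC-1 replicate 1 (0.0644). HIST1H4C was not called.

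The change of the YC-1 effect between times was tested as a difference of log2 fold changes (16 h minus 6 h). In RBE, 1 of 20 members was higher at 16 h and none lower, beside 8.8% and 9.43% of all genes, and in SNU1079, 3 were higher (2 with the H3 pair taken once) and none lower, beside 8.47% and 8.53%. At an unadjusted p under 0.05 the lower members numbered 2 in RBE and 0 in SNU1079. HIST1H1C was the member called in both lines, with a difference of 1.33 ± 0.22 in RBE (adjusted p = 0.000358) and 0.80 ± 0.22 in SNU1079 (adjusted p = 0.0182). HIST2H3C gave 1.72 ± 0.50 (adjusted p = 0.0217) in SNU1079 and, with the same sign, HIST2H3A 1.68 ± 0.50 (adjusted p = 0.0236). The SNU1079 calls did not hold everywhere: HIST1H1C was lost without YC-1 6 h replicate 2 (0.0604) or DMSO 6 h replicate 3 (0.0514), and HIST2H3C without YC-1 6 h replicate 2 (0.0602), YC-1 16 h replicate 2 (0.0575) or DMSO 16 h replicate 3 (0.07). HIST2H3A was lost without these 3 libraries and without DMSO 6 h replicate 3 (0.0559), so that without YC-1 6 h replicate 2 no member was called. With equal sums the SNU1079 differences were 0.49 (adjusted p = 0.147) for HIST1H1C, 1.44 (0.0542) for HIST2H3C and 1.40 (0.0594) for HIST2H3A, and under ribosomal protein scaling the RBE difference of HIST1H1C was 0.47 (0.113).

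Between the lines the YC-1 effect was tested as SNU1079 minus RBE. At 6 h no member differed in either direction (limma, beside 0.767% higher and 0.773% lower of all genes), with 0 higher and 5 lower at an unadjusted p under 0.05. At 16 h, 1 member was lower in SNU1079 and none higher, beside 6.43% and 8.17%, with 2 higher and 1 lower at an unadjusted p under 0.05. That member was HIST1H2AC, whose effect was lower in SNU1079 by -0.74 ± 0.22 (adjusted p = 0.0274). The HIST1H2AC call was lost without RBE YC-1 16 h replicate 2 or 3, RBE DMSO 16 h replicate 3, SNU1079 YC-1 16 h replicate 1 or 2 or SNU1079 DMSO 16 h replicate 2 (adjusted p between 0.0529 and 0.0803), and the difference was -0.30 (adjusted p = 0.457) under ribosomal protein scaling. The larger number of members called in RBE than in SNU1079 at 6 h is therefore not shown to be a difference between the lines.

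The vehicle groups differed by line far more than by time. In DMSO cells, 11 of 20 members were higher in SNU1079 than in RBE and none lower, over both times, beside 32.1% and 35% of all genes, with 1 lower at an unadjusted p under 0.05. With the H3 pair taken once the count was 10 of 19, and among the 16 members that pass the level limit on DMSO libraries it was 9. Of the members called, HIST1H2AI and HIST3H2A reached 10 in 8 SNU1079 libraries each and in 0 RBE libraries, so they are members only through the line in which they are higher. The counts of 11, 10 and 9 include both, so these counts were in part fixed by the choice of members. HIST1H2AC averaged 436 ± 43.3 at 6 h and 492 ± 62.4 at 16 h in SNU1079, against 76.9 ± 3.37 and 89.7 ± 6.66 in RBE (log2 fold change 2.46 ± 0.11, adjusted p = 2.39e-14). HIST2H2AA3 averaged 69.9 ± 9.18 and 53.8 ± 15.3 in SNU1079, against 11.1 ± 3.64 and 15.8 ± 3.64 in RBE (2.14 ± 0.23, adjusted p = 3.35e-08), and HIST1H1C 336 ± 27.5 and 274 ± 5.23 in SNU1079, against 92.3 ± 11.3 and 73.9 ± 5.40 in RBE (1.87 ± 0.11, adjusted p = 3.37e-12). HIST1H2AI had 5.70 to 20.3 normalised counts in the 6 SNU1079 DMSO libraries, against 0 in 5 RBE DMSO libraries and 0.881 in the other. Its fitted value of 3.32 ± 0.33 depends on the pseudocount and is no bound, and its direction was in part fixed by the choice of members. It was singled out after its values were seen. HIST1H2AG was the member nearest to a lower value in SNU1079 (-0.48 ± 0.21, adjusted p = 0.0541). Between 16 h and 6 h of DMSO no member was called in RBE, where 0.0056% of all genes rose and 0.0392% fell, or in SNU1079 (limma, 3.82% and 4.75%). At an unadjusted p under 0.05, 4 members were higher and 0 lower at 16 h for RBE, and for SNU1079 2 were higher with 1 lower.

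Promoters are printed for HIST2H3C, which rose in all comparisons, for HIST1H1C, which rose late, and for HIST1H2BK, which fell early, since histone promoters carry well known short elements. RefSeq promoters (GRCh38.p14, 250 bases before to 50 after the start) matched 18 of the 20 members by symbol, without HIST2H2AA3 and HIST1H4C. A CCAAT box (CCAAT, either strand) stood in 16 of the 18, against 34.6% of 35116 promoters, a TATA box (TATAAA, either strand) in 13 of 18, against 11.5%, and the octamer bound by POU2F1 (ATTTGCAT, either strand) in 8 of 18, against 1.77%. The members without CCAAT were HIST1H4H and HIST4H4, the pair of H4 genes with a promoter here. The 18 are not all separate sequences, since the promoters of HIST1H2AC and HIST1H2BC overlap, as do those of HIST1H2AG and HIST1H2BJ. The same letters can therefore count for more than 1 member. A gene with several promoters was counted if any of them held the letters, while the shares are of single promoters. The octamer of HIST1H3D stood in only 1 of its promoters. Matches of the TATA box on the 2 strands can overlap, as in TTTATAAA. In the sequences below, written 5′ to 3′ along the gene, the capitals mark these letters.
HIST2H3C, chr1:149841159-149841458, minus strand: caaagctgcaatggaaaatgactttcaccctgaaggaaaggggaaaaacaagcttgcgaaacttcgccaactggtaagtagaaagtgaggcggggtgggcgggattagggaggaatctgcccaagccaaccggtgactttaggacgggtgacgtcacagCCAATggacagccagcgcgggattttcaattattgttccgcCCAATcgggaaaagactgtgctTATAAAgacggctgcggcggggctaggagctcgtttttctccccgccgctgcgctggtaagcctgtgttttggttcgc
HIST1H1C, chr6:26056421-26056720, minus strand: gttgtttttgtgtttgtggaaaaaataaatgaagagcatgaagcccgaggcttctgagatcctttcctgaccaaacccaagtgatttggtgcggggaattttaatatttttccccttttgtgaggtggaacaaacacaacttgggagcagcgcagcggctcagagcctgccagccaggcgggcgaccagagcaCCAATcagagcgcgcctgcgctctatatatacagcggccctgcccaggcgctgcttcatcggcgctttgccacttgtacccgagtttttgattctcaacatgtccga
HIST1H2BK, chr6:27146809-27147108, minus strand: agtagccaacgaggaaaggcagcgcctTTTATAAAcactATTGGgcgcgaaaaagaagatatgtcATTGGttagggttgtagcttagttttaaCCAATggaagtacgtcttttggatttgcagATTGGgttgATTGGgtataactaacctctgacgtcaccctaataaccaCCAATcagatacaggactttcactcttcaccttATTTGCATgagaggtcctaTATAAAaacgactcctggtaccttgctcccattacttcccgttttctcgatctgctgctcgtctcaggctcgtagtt
The HIST2H3C promoter held 2 CCAAT boxes and 1 TATA box with no octamer. That of HIST1H1C held 1 CCAAT box with no match to TATAAA or to the octamer, but it holds the letters tatatata, which were not searched. That of HIST1H2BK held 6 CCAAT boxes, 3 TATA matches and 1 octamer. HIST2H3A and HIST2H3C shared a run of 296 bases of their 300-base windows. A match is a stretch of letters and was not tested for use in these cells.

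The genes that make, process and deposit histones were followed through 5 lists. Their counts stand beside shares over all genes of 11.6% higher with 12.4% lower (6 h) and 27.3% higher with 26.6% lower (16 h) for RBE, and 14% higher with 14.2% lower (6 h) and 28.7% higher with 25.8% lower (16 h) for SNU1079. A count near these shares is no result about a list. Of 23 genes for histone mRNA 3′ end processing and histone gene transcription, in RBE 3 rose with 4 falling at 6 h, and 5 rose with 8 falling at 16 h, while in SNU1079 3 rose with 7 falling at 6 h, and 6 rose with 10 falling at 16 h. SLBP, which binds the stem-loop, averaged 2020 ± 143 in RBE with YC-1 for 16 h, against 3176 ± 85.8 with DMSO, and 1095 ± 133 in SNU1079 with YC-1 for 16 h, against 2195 ± 188 with DMSO. Its log2 fold change was -0.66 ± 0.10 (adjusted p = 9.93e-06) and -1.01 ± 0.10 (adjusted p = 3.20e-08), and it was 0.04 ± 0.10 in RBE and -0.59 ± 0.10 in SNU1079 at 6 h. NPAT, the coactivator of histone genes at the histone locus body, fell in all 4 comparisons, to 95.8 ± 15.8 in RBE with YC-1 for 16 h, against 417 ± 29.7 with DMSO, and to 83.3 ± 22.3 in SNU1079 with YC-1 for 16 h, against 400 ± 94.1 with DMSO (-2.12 ± 0.24 and -2.26 ± 0.24). POU2F1, which binds the octamer of H2B promoters, fell in all 4 as well, with log2 fold changes between -2.63 and -1.92. PARN, a poly(A)-specific ribonuclease, and CSTF2T, a cleavage stimulation factor, fell at 16 h, with log2 fold changes of -1.02 and -1.45 in RBE and -1.34 and -1.92 in SNU1079. SLBP, NPAT, POU2F1, PARN and CSTF2T fell at 16 h in each line under each of the scalings tried. The genes of this list that rose at 16 h, 5 in RBE and 6 in SNU1079, are not among those named.

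S-phase and DNA replication genes, whose activity normally accompanies replication-dependent histone mRNA, fell in SNU1079 and went both ways in RBE. Of 34 such genes, in RBE 9 rose with 2 falling at 6 h, and 9 rose with 14 falling at 16 h, while in SNU1079 none rose with 17 falling at 6 h, and none rose with 24 falling at 16 h, with medians of 0.27, -0.13, -0.43 and -0.84. In RBE at 16 h the split was 2 higher and 19 lower with equal sums and 0 higher and 28 lower under ribosomal protein scaling. The median log2 fold change of all genes was -0.27 and -0.83 under these scalings, and the shares of all genes called are not given. In SNU1079 with DMSO, 10 of the 34 were higher at 16 h than at 6 h and none lower, beside 3.82% and 4.75% of all genes. That split was 12 higher and none lower with equal sums, and 4 higher and 1 lower under ribosomal protein scaling, again without the shares of all genes. PCNA, the sliding clamp of replication, averaged 4173 ± 485 in SNU1079 with YC-1 for 16 h, against 9573 ± 1073 with DMSO (-1.20 ± 0.13), and 3864 ± 339 in RBE with YC-1 for 16 h, against 5664 ± 74.4 with DMSO (-0.56 ± 0.13). RRM2, a subunit of ribonucleotide reductase, gave -1.42 ± 0.08 in SNU1079 and -0.64 ± 0.08 in RBE at 16 h. CCNA2, the S-phase cyclin A2, GINS1 of the replicative helicase, the flap endonuclease gene FEN1 and the DNA polymerase alpha gene POLA1 fell in SNU1079 at 16 h, with log2 fold changes of -2.19, -2.23, -2.09 and -1.99 in that order.

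The replication-independent histone variants, most of whose mRNAs are polyadenylated, were split. Of 11 tested, in RBE 2 rose with 2 falling at 6 h, and 4 rose with 1 falling at 16 h, while in SNU1079 2 rose with 1 falling at 6 h, and 2 rose with 6 falling at 16 h. For RBE at 16 h the variant list turned to 0 higher and 4 lower with equal sums (median of all genes -0.27). Under ribosomal protein scaling (median of all genes -0.83) it was 0 higher and 9 lower. H3F3B, which encodes H3.3, averaged 13310 ± 556 in RBE with YC-1 for 6 h, against 9519 ± 679 with DMSO, and 20794 ± 1910 in SNU1079 with YC-1 for 6 h, against 12192 ± 508 with DMSO, and rose in all 4 comparisons (0.49 ± 0.11 and 0.48 ± 0.11 in RBE, 0.77 ± 0.11 and 0.35 ± 0.11 in SNU1079 at 6 h and 16 h). At 16 h the H3F3B value was -0.43 in RBE and -0.11 in SNU1079 under ribosomal protein scaling, and -0.01 in SNU1079 with equal sums. H1F0, the linker histone H1.0, rose at 6 h in both lines (0.54 ± 0.09 in RBE and 0.69 ± 0.09 in SNU1079), was 0.04 ± 0.09 in RBE at 16 h and fell in SNU1079 at 16 h (-1.25 ± 0.09), where it averaged 1029 ± 116 with YC-1 and 2435 ± 92.8 with DMSO. H2AFZ, which encodes H2A.Z, fell in SNU1079 at 16 h (-1.22 ± 0.14), and H2AFX was not called. H2AFJ rose at 16 h in each line (1.11 ± 0.34 in both), a call lost with equal sums (0.78 in RBE and 0.74 in SNU1079), and H2AFY2 fell at 16 h in RBE (-0.26 ± 0.09) and SNU1079 (-0.94 ± 0.09).

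Of 27 histone chaperone genes, in RBE 4 rose with 5 falling at 6 h, and 8 rose with 11 falling at 16 h, while in SNU1079 5 rose with 6 falling at 6 h, and 5 rose with 10 falling at 16 h. The replication-coupled chaperone genes CHAF1A and NASP fell at 16 h (-1.41 and -1.58 in RBE, -1.83 and -1.98 in SNU1079), and HJURP, which loads the centromeric H3 variant, fell likewise (-1.59 in RBE, -2.44 in SNU1079). Of 25 genes for poly(A) polymerases and nuclear RNA decay, in RBE 3 rose with 4 falling at 6 h, and 6 rose with 12 falling at 16 h, while in SNU1079 2 rose with 4 falling at 6 h, and 4 rose with 12 falling at 16 h. ZCCHC7 of the TRAMP complex, ZFC3H1 of the poly(A) exosome targeting connection and the exosome helicase gene SKIV2L2 (MTR4) fell in both lines at 16 h (-1.37, -1.23 and -1.03 in RBE, -1.72, -1.37 and -1.5 in SNU1079). RBM7 of the nuclear exosome targeting complex fell in SNU1079 (-1.38 ± 0.29) and gave -0.68 ± 0.29 in RBE (adjusted p = 0.0513). Under ribosomal protein scaling in RBE at 16 h no gene of the processing, chaperone and RNA decay lists rose. There 18 of the 23 processing genes, 22 of the 27 chaperone genes and 19 of the 25 RNA decay genes fell. The median log2 fold change of all genes was -0.83 under that scaling, and the share of all genes called is not given. These counts are therefore no result about the lists. The part of the companion genes in the HIST2H3C values was not tested.

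**Figure D4:**
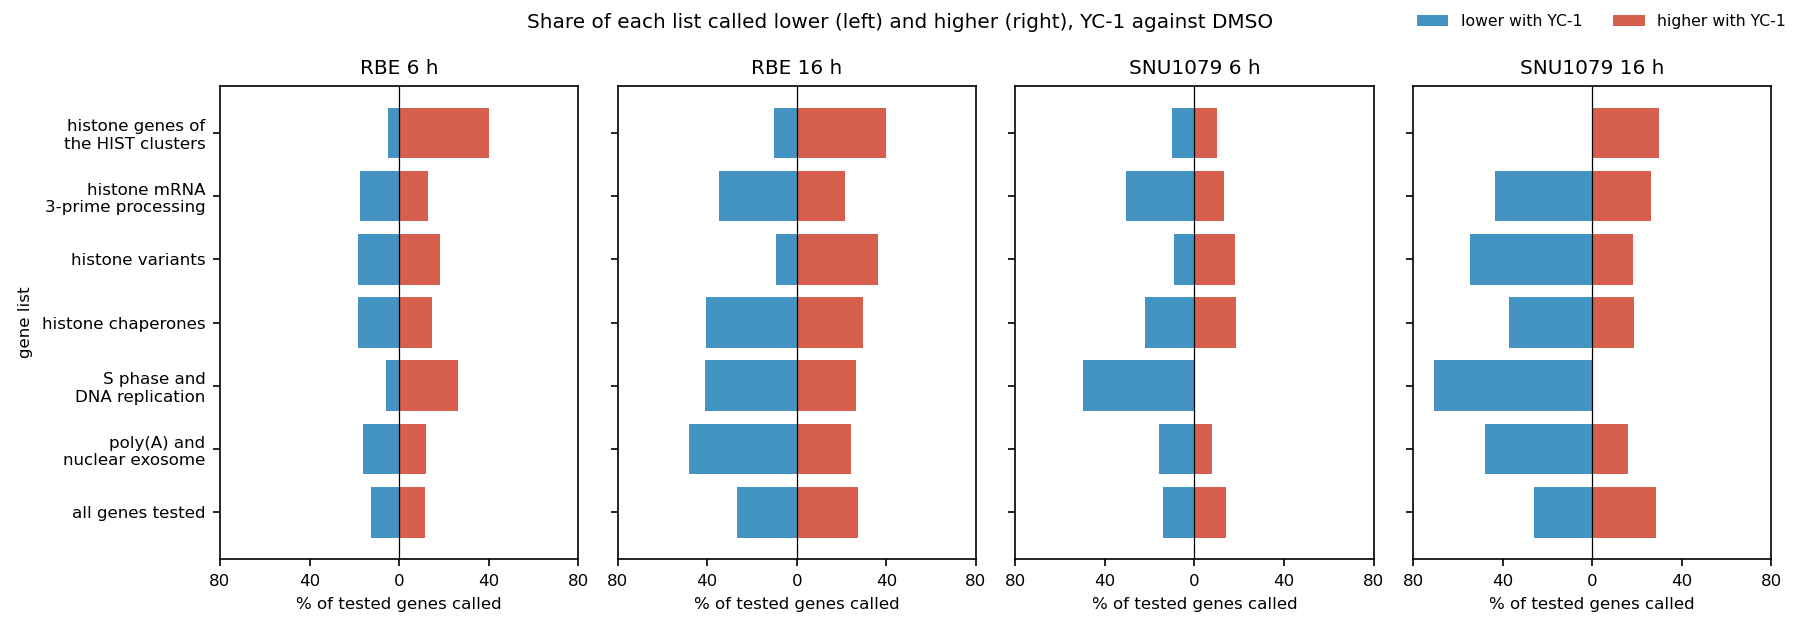
Share of the tested genes of each list that was lower (blue, left) or higher (red, right) with YC-1 at an adjusted p under 0.05 (x axis, percent), for the 20 histone genes, the 5 companion lists and all 17860 genes, in the 4 comparisons. In SNU1079 at 16 h, 6 of 20 histone genes were higher and none lower, while 24 of 34 S-phase and DNA replication genes were lower and none higher. With equal sums, where the median log2 fold change of all genes was -0.25, 3 histone genes were lower there.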

How the data were processed

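RNA-seq of 24 libraries from 2 cell lines was used as 1 deposited table with a column for each library. Its values are the authors' DESeq2-normalised counts, used here as a signal that is not whole reads. The submitters' processing notes name STAR, DESeq2 and hg38, while how reads were counted, whether strand was used and which annotation served is not stated there. Raw counts were not analysed here, so no count model was run and counting intervals are not given. The deposited table was used as it stood. Genes at 10 or more in at least 3 libraries (17860) were fitted with limma 3.58.1 in R 4.3.3 on log2(normalised count + 1), with 8 group means, an intensity trend and 16 residual degrees of freedom. Tests were two-sided, p-values were adjusted over all genes by the Benjamini-Hochberg method, and the threshold was an adjusted p of 0.05. The script was tested on simulated data. Tables and figures were made with Python 3.11.15, pandas 2.3.3, numpy 2.4.6 and matplotlib 3.10.9. Gene positions and transcripts came from GENCODE 29 by gene identifier. Named members were the 10 with the highest mean, the called members with the 5 highest and 5 lowest fold changes in each YC-1 comparison (3 and 3 in the others) whose higher group averaged 20 or more, and the linker genes; other members were named after their values were seen. Named companion genes were up to 4 a list with the largest called change at 16 h and a mean of at least 100, plus SLBP, NPAT, H2AFZ, H2AFX, H3F3B, H1F0, PCNA and RRM2. The members and lists were chosen with earlier results of these data known. Alternatives were other pseudocounts, filters, scalings, sample sets, a replicate block, pooled times and each library left out. With 3 libraries a group the smallest two-sided exact permutation p is 0.1, so none was run. Some items are not reported here.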

Additional observations from a re-analysis of the deposited data

Results flagged for a closer look

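These results were singled out because YC-1 effects at different times or in different lines were unequal by a test of the difference itself (limma, adjusted p under 0.05), and no cause was tested. For HIST1H1C the effect at 16 h minus that at 6 h was 1.33 in RBE and 0.80 in SNU1079, and in SNU1079 it was 1.72 for HIST2H3C and 1.68 for HIST2H3A, which are 1 measurement. For HIST1H2AC the effect in SNU1079 minus that in RBE at 16 h was -0.74.

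For 6 companion genes named whatever their values, the differences that passed the test were all negative, while in RBE each companion list held time differences of both signs. In RBE the difference (16 h minus 6 h) was -0.50 for H1F0, -1.40 for NPAT, -0.69 for RRM2 and -0.69 for SLBP. In SNU1079 it was -1.94 for H1F0, -1.13 for H2AFZ, -1.03 for NPAT, -0.65 for PCNA, -1.29 for RRM2 and -0.42 for SLBP. The effect in SNU1079 minus that in RBE was -1.29 for H1F0, -1.14 for H2AFZ, -0.64 for PCNA and -0.78 for RRM2 at 16 h, and -0.63 for SLBP at 6 h.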

How the results depend on the processing

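Over 34 called values of named histone genes, 12 kept their call in every alternative. Leaving out 1 library kept 178 of 234 values, and 56 lost the call with no change of sign. Of 397 values under other alternatives, 347 kept the call, 47 lost it and 3 changed sign. All 3 were in RBE at 16 h under ribosomal protein scaling (HIST1H2AC -0.36, HIST2H2BE -0.21 and HIST1H2AG -0.021). The median log2 fold change of all genes was -0.83 there. Why ribosomal protein genes give another scale was not tested. The replicate numbers did not pair the samples (1 of 12 same-numbered pairs correlated over 0.1, between -0.15 and 0.19), and with the replicate block the lower members in RBE at 6 h were 0, against 1. Members near 10 normalised counts rest on few reads, but HIST1H2BK, at a mean of 608, lost its 6 h calls too. What sets these limits was not tested.

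Counts of members called moved by over 1.5 times as follows, and the shares of all genes called under the alternatives are not given. With a mean of at least 50, which tests fewer genes, higher members were 3 at 6 h and 4 at 16 h for RBE, 0 at 6 h and 3 at 16 h for SNU1079, 1 for the time difference in SNU1079 and 5 for SNU1079 against RBE in DMSO, and lower members were 0 in RBE at 16 h and 1 in SNU1079 at 6 h. With no filter, lower members were 0 in RBE and 0 in SNU1079 at 6 h, and 1 member was higher for SNU1079 minus RBE at 16 h. With equal sums, 4 were higher in RBE at 16 h and 0 for the SNU1079 time difference, and lower members were 3 in SNU1079 at 16 h, 2 for the time difference in RBE and 1 in SNU1079. Without mitochondrial genes in the sums, 5 were higher in RBE at 16 h, and lower members were 2 in SNU1079 at 16 h and 1 for the RBE time difference. Under ribosomal protein scaling, higher members were 3 in RBE and 3 in SNU1079 at 16 h, 0 for each time difference and 2 for SNU1079 minus RBE at 16 h. Lower members were then 0 in RBE at 6 h, 5 for RBE at 16 h, 3 for SNU1079 at 16 h, 5 for the RBE time difference, 0 for SNU1079 minus RBE at 16 h and 1 for SNU1079 against RBE in DMSO. With 1 line alone, lower members were 1 in RBE at 16 h and 0 in SNU1079 at 6 h, and higher members 2 and 1 for the time differences. With times pooled, 4 were higher and 0 lower in SNU1079, and 1 lower in RBE. A pseudocount of 10 gave 3 higher for the RBE time difference, and no intensity trend 1 lower for SNU1079 against RBE in DMSO. Without the 3 SNU1079 libraries that stood apart, an alternative chosen after seeing the data, 1 was lower for SNU1079 minus RBE at 6 h and 1 for SNU1079 against RBE in DMSO.

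With each library left out in turn, higher members ranged from 5 to 7 and lower from 0 to 1 in RBE at 6 h, 5 to 8 and 1 to 2 in RBE at 16 h, 2 to 2 and 0 to 2 in SNU1079 at 6 h, and 5 to 7 with 0 lower in SNU1079 at 16 h. For time differences they ranged from 1 to 2 higher and 0 to 1 lower in RBE, and 0 to 4 higher in SNU1079. SNU1079 minus RBE at 16 h gave 0 to 1 lower. DMSO 16 h against 6 h gave 0 to 1 higher in RBE and 0 to 1 lower in SNU1079, and SNU1079 against RBE in DMSO 8 to 11 higher and 0 to 1 lower.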
